A study of Homo sapiens with 18 samples.

Results

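The clustered protocadherin genes were defined here as the protein-coding genes in the protocadherin locus of hg19 chromosome 5 (chr5:140165725-140892542) whose names begin with PCDHA, PCDHB or PCDHG. This gave 53 genes of the 20098 protein-coding genes on chromosomes 1 to 22 and X, of which 15 were PCDHA, 16 PCDHB and 22 PCDHG. All 53 lie on the plus strand. Genes that share 3′ exons were counted separately, each with its own TSS and its own first exon. The chromatin came from undifferentiated, untreated HL-60/S4 cells, an established human myeloid leukemia cell line, fixed with formaldehyde. In xChIP, chromatin was sonicated first and then met the antibody, which was against linker histone H1.2 or H1.5. In xxChIP the antibody entered permeabilized fixed cells, a further formaldehyde step held it there, and sonication followed. There were 3 replicates per antibody and protocol, and each of these 4 sets was deposited as 1 list of merged peaks, that is of regions called as enriched in the antibody's signal. The lists hold positions on hg19 and no score, so neither the spread between replicates nor the depth is known, no error can be put on a value and no test between the lists was possible. All values below are therefore descriptions of 4 merged lists.

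The clustered protocadherins are cell-surface adhesion proteins best known from neurons, where each cell uses its own combination of isoforms to tell itself from its neighbours. In the PCDHA and PCDHG clusters each gene has a large variable first exon with its own promoter, and that exon is spliced to 3 constant exons at the end of the cluster, which encode the shared intracellular part. PCDHB genes consist of a single large coding exon and have no constant exons. The C-type genes (PCDHAC1, PCDHAC2, PCDHGC3, PCDHGC4 and PCDHGC5) lie at the ends of their clusters and are regulated apart from the other variable exons. Promoter choice is known to involve CTCF and cohesin, which form loops, and DNA methylation of the promoters that are not used. No expression was measured in these data.

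The balance between the protocols changed along the locus. Peaks of xxChIP H1.2 covered 34.6% of the bases of the PCDHA cluster (chr5:140165725-140391932), and those of xChIP H1.2 covered 8.61% of it. In the PCDHG cluster (chr5:140710081-140892542) the order was the opposite, with 34.2% covered by xChIP H1.2 and 11.2% by xxChIP H1.2. The H1.5 lists gave the same order, with 20.6% for xxChIP and 14.6% for xChIP in PCDHA, and with 6.92% for xxChIP and 19.7% for xChIP in PCDHG. In PCDHB (chr5:140430959-140628933) the xxChIP lists covered 18.5% for H1.2 and 21.5% for H1.5, and the xChIP lists covered 16.7% for H1.2 and 5.62% for H1.5. The order of the H1.2 lists in PCDHG rested on a few long xChIP peaks. The cluster held 10 peaks of xChIP H1.2 and 12 of xxChIP H1.2, and the number of peak centres relative to the genome was 1.09 and 1.30, which is the reverse order. Without the longest peak of each list, xChIP H1.2 covered 15.0% of PCDHG, still above the 11.2% of xxChIP H1.2. From PCDHGA1 to PCDHGA12, however, xChIP H1.2 covered 7.89% and xxChIP H1.2 11.3%. The H1.5 order was not found in that part either, with 7.87% for xChIP and 7.99% for xxChIP. Without the longest peaks, xChIP H1.5 covered 11.4% of PCDHG and xxChIP H1.5 6.92%. For comparison, the 4 lists covered 26.4% (xChIP H1.2), 16.3% (xChIP H1.5), 20.2% (xxChIP H1.2) and 17.2% (xxChIP H1.5) of the known sequence of these chromosomes.

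Set among all 11377 tiles of 250 kb into which chromosomes 1 to 22 and X were divided, PCDHA stood above 88.1% of the tiles for xxChIP H1.2 and above 11.6% of them for xChIP H1.2. PCDHB stood above 4.38% of the tiles for xChIP H1.5, which is low, and PCDHG above 15.9% for xxChIP H1.5 and above 75.7% for xChIP H1.2. Over the 3 clusters and the 4 lists, between 4.38% and 88.1% of the tiles stood lower, and these positions are a description.

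**Figure D1:**
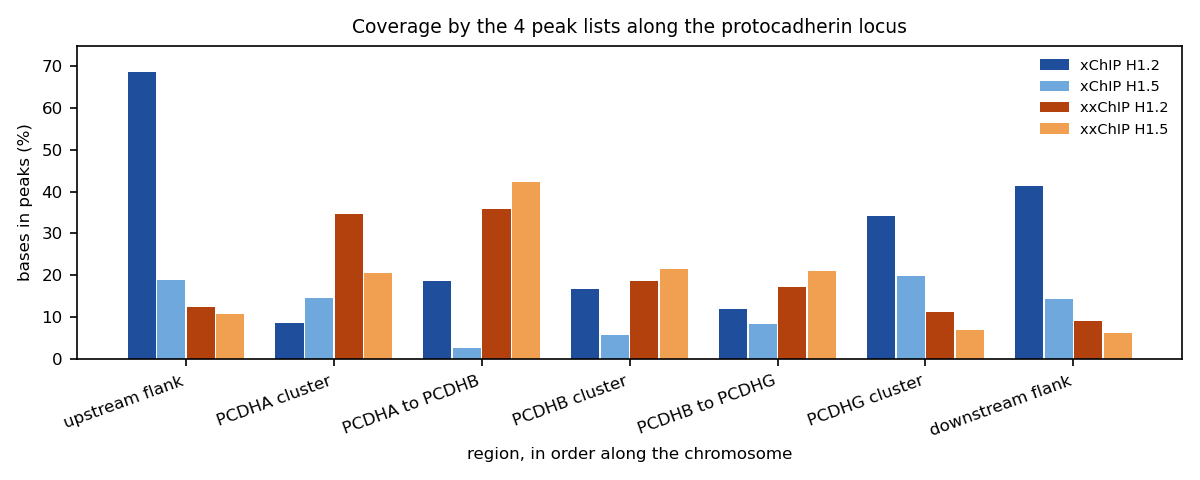
Percent of bases in peaks (vertical axis) for the 3 protocadherin clusters, the spaces between them and 250 kb on either side, in order along chromosome 5, with 1 bar per peak list. Coverage by xChIP H1.2 was 68.7% in the upstream flank, fell to 8.61% over PCDHA and reached 34.2% over PCDHG, while xxChIP H1.2 was highest over PCDHA and the space after it.

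Both flanks were covered more by xChIP H1.2 than any of the 3 clusters. The 250 kb before PCDHA1 were covered to 68.7% in xChIP H1.2, to 18.8% in xChIP H1.5, to 12.4% in xxChIP H1.2 and to 10.7% in xxChIP H1.5. The 250 kb after PCDHG were covered to 41.3%, 14.2%, 9.12% and 6.11% by the same lists. The longest peak there was an xChIP H1.2 peak of 60.4 kb (chr5:140082870-140143310), which ended 22.4 kb before PCDHA1. The 39.0 kb between PCDHA and PCDHB were covered most by xxChIP H1.5, at 42.4%, then by xxChIP H1.2, at 35.8%. They were covered to 18.6% in xChIP H1.2 and to 2.67% in xChIP H1.5.

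**Figure D2:**
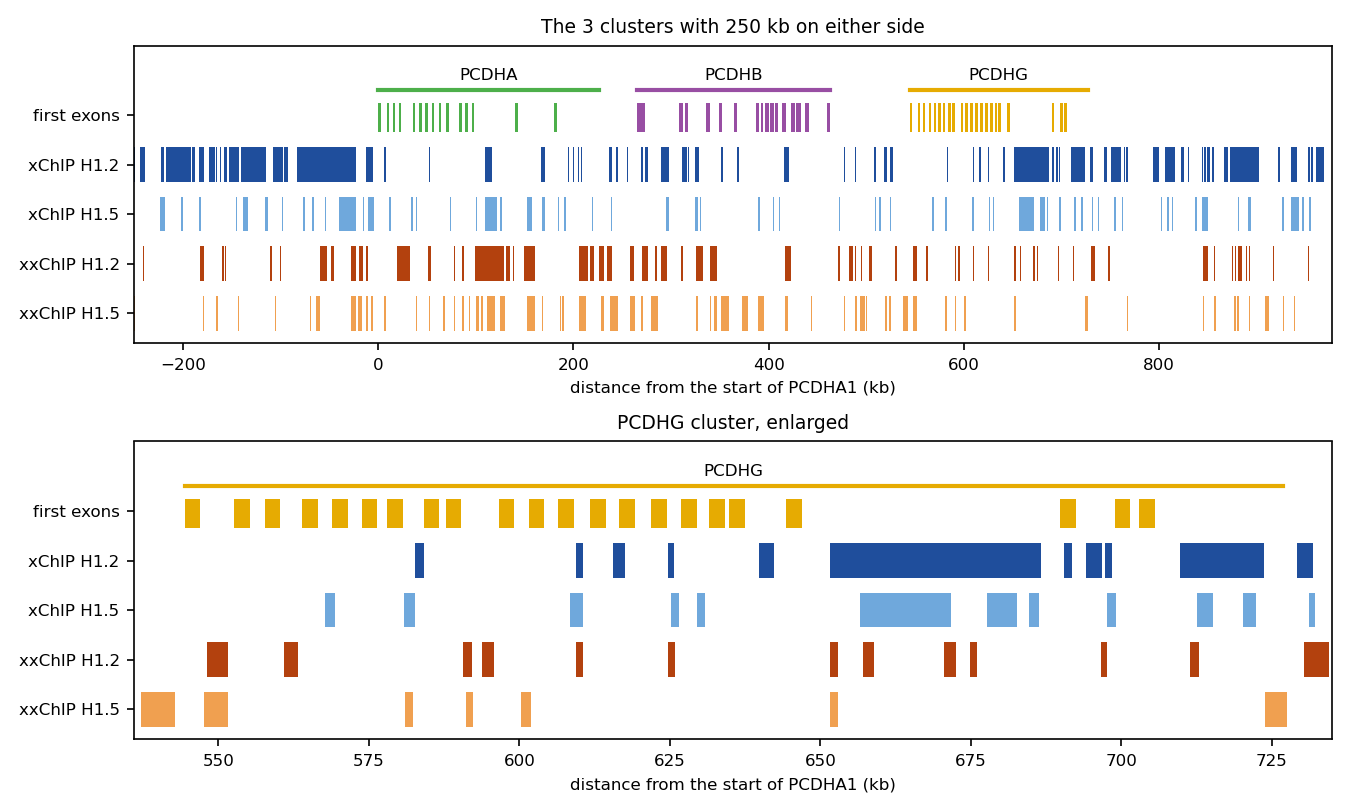
Peaks of the 4 lists (filled bars, 1 row per list) and the first exons of the 53 genes (top row) against distance from the start of PCDHA1 in kb. The upper panel shows the 3 clusters with 250 kb on either side, and the lower panel enlarges PCDHG, where the longest bar is the 35.2-kb xChIP H1.2 peak between PCDHGA12 and PCDHGC3 and most first exons have no bar beneath them.

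Each list overlapped 5 or 6 of the 53 protocadherin promoters. A promoter was taken as TSS ± 1000 bp and counted when at least 1 bp of it lay in a peak. With xChIP H1.2, 6 of 53 promoters (11.3%) were counted, where the share over all protein-coding genes was 47.1%. With xChIP H1.5 it was again 6 of 53 (11.3%), where the share over all genes was 20.7%. With xxChIP H1.2 it was 5 of 53 (9.43%) and over all genes 7.88%, and with xxChIP H1.5 5 of 53 (9.43%) and over all genes 7.14%. Over the 471 genes with first exons of at least 2000 bp the promoter shares were 29.7%, 14.2%, 7.86% and 6.79%. The xChIP shares thus lay below those of all genes and the xxChIP shares lay near them. These counts rested on 6, 6, 5 and 4 separate peaks, in the order of the lists just given. Since neighbouring promoters share a locus, they are not independent draws.

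Of the 53 promoters, 33 (62.3%) were overlapped by no list, 18 (34.0%) by 1 list and 2 (3.77%) by 2 lists, and none by 3 or 4. Over all protein-coding genes 39.5% of promoters were overlapped by no list, 41.0% by 1, 17.0% by 2, 2.04% by 3 and 0.413% by all 4. Over the 471 genes with first exons of at least 2000 bp, the protocadherins among them, the shares were nearer to those of the 53 genes, with 54.1% by no list, 34.8% by 1 and 9.55% by 2. The 2 promoters in 2 lists were those of PCDHGC4 (both xChIP lists) and PCDHA2 (xChIP H1.2 and xxChIP H1.5). At PCDHGC4, xChIP H1.2 covered 33.0% and xChIP H1.5 58.1% of TSS ± 1000 bp, and the xxChIP lists covered none of it. At PCDHA2 the coverage was 11.7% in xChIP H1.2, 28.7% in xxChIP H1.5 and 0 in the other lists.

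In PCDHA, 11 of 15 promoters (73.3%) lay in no peak, where the share over all protein-coding genes was 39.5%. The 11 included the promoters of all 8 genes from PCDHA6 to PCDHA13. PCDHA4 was the exception with a fully covered promoter, 100% in xxChIP H1.2 and 0 in the other 3 lists. That coverage came from a 13.4-kb peak (chr5:140184979-140198401), which ran over the whole PCDHA4 gene-specific exon. PCDHA5 followed with 41.4% in xChIP H1.5. The first gene, PCDHA1, and the last, the C-type gene PCDHAC2, had none in any list, and the other C-type gene, PCDHAC1, had 16.3% in xxChIP H1.2 and 0 elsewhere.

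In PCDHB, 5 of 16 promoters lay in a peak, each in 1 list. The share in no list was 68.8%, beside 39.5% over all protein-coding genes. PCDHB3 was covered to 100% in xChIP H1.2, PCDHB8 to 100% and PCDHB16 to 11.9% in xxChIP H1.5 (the same 6.81-kb peak), PCDHB12 to 67.5% in xxChIP H1.2, and PCDHB10 to 16.5% in xChIP H1.5. PCDHB1, which stands 35.3 kb before the rest of its cluster, and PCDHB15, the last gene, had no promoter base in a peak of any list.

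In PCDHG, 11 of 22 promoters lay in a peak and 50% in none. The share in no list was 39.5% over all protein-coding genes and 54.1% over those with first exons of at least 2000 bp. The lists overlapped 18.2% (xChIP H1.2), 18.2% (xChIP H1.5), 9.09% (xxChIP H1.2) and 9.09% (xxChIP H1.5) of the 22 promoters. Over all genes these shares were 47.1%, 20.7%, 7.88% and 7.14%. The highest promoter in each list was PCDHGA9 in xChIP H1.2 (98.7%), PCDHGA4 in xChIP H1.5 (73.5%), PCDHGB1 in xxChIP H1.2 (14.2%) and PCDHGB4 in xxChIP H1.5 (66.3%). None of these 4 promoters was touched by another list. Beside PCDHGC4, described above, the others were PCDHGB3 (52.9%) in xChIP H1.2, PCDHGA10 (33.3%) and PCDHGB7 (14.1%) in xChIP H1.5, PCDHGA7 (6.75%) in xxChIP H1.2 and PCDHGA2 (2.00%) in xxChIP H1.5. PCDHGC3, a C-type gene, had 17.2% in xChIP H1.2 and 0 in the other lists. PCDHGA1, the first gene, and PCDHGC5, the last, had 0 in every list.

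**Figure D3:**
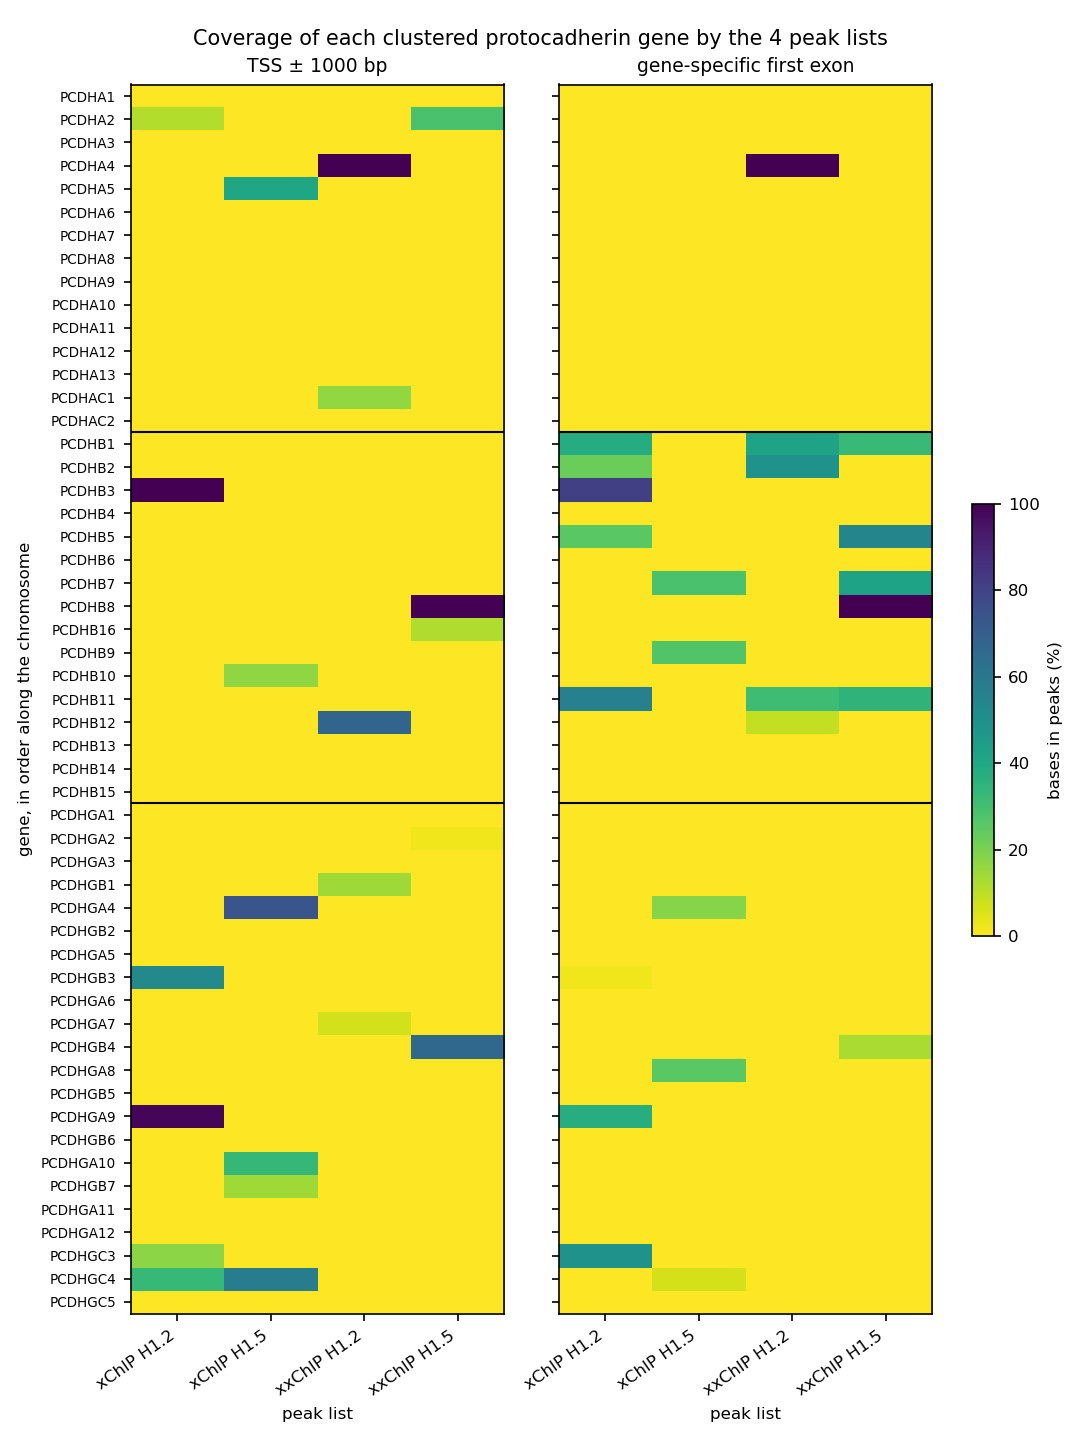
Percent of bases in peaks for each of the 53 genes (rows, in order along the chromosome, lines between the clusters) and each list (columns), for TSS ± 1000 bp on the left and for the gene-specific first exon on the right. Most cells are at 0, PCDHA has a single covered first exon (PCDHA4), and the first exons of PCDHB hold most of the covered cells.

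The promoter sequences below, 250 bp before to 50 bp after the TSS, belong to the gene with the highest and the gene with the lowest coverage of TSS ± 1000 bp summed over the lists in each cluster (the first by position where several were tied), so that covered and bare promoters can be read side by side. They were read from the GRCh37 assembly, the sequence of hg19. Capitals mark the word of 8 letters, or the joined pair of equally common words, that most promoters of that cluster share on the sense strand.
PCDHA4 promoter, chr5:140186403-140186702, plus strand: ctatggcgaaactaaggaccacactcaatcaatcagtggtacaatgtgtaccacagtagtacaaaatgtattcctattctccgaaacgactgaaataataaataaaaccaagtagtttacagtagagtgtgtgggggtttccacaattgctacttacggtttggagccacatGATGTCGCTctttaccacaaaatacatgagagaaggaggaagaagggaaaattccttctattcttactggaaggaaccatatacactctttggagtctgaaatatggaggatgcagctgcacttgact
PCDHA1 promoter, chr5:140165475-140165774, plus strand: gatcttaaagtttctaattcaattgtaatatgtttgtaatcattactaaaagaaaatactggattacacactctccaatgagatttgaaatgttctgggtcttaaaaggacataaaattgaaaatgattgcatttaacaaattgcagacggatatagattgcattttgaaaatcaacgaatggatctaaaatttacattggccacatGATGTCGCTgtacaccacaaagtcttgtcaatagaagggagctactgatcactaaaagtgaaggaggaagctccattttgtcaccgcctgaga
PCDHB3 promoter, chr5:140479807-140480106, plus strand: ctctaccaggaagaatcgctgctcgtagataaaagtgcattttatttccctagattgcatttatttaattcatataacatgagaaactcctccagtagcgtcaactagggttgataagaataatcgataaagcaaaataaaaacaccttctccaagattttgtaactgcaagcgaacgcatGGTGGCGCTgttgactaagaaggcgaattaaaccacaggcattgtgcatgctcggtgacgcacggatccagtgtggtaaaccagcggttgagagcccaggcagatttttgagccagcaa
PCDHB1 promoter, chr5:140430709-140431008, plus strand: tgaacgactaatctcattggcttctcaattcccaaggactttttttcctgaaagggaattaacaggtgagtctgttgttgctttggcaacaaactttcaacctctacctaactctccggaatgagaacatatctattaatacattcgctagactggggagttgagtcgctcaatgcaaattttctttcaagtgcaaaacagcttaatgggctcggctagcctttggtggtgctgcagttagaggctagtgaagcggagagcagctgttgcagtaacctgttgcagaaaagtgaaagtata
PCDHGA9 promoter, chr5:140782095-140782394, plus strand: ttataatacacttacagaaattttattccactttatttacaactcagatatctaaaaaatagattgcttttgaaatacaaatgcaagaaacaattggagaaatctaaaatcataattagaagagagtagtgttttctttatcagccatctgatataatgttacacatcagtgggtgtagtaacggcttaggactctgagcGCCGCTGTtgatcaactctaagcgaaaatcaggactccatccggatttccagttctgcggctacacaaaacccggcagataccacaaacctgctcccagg
PCDHGA1 promoter, chr5:140709831-140710130, plus strand: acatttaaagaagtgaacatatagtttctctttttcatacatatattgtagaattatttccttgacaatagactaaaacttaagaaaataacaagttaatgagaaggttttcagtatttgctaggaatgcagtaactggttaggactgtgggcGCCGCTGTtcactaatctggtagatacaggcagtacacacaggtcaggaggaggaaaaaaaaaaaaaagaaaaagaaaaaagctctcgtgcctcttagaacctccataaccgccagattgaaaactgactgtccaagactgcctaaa

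The shared words differed between the clusters and had the letters CGCT in common. GATGTCGCT was present in 10 of 15 PCDHA promoters, GGTGGCGCT in 14 of 16 PCDHB promoters and GCCGCTGT in 12 of 22 PCDHG promoters, each on the sense strand, and none of the 3 words was found there in a promoter of another of these clusters. On either strand they occurred in 0.129%, 0.716% and 2.05% of all protein-coding promoters of the same length, in that order. Their median positions were 56, 66 and 65 bp before the TSS. A conserved element with a CGCT core is known from protocadherin promoters, but the words here were found by counting letters and are not shown to be bound by anything.

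In PCDHA and PCDHG, promoters with and without the word were both found in peaks. In PCDHA, 3 of the 10 promoters with the word and 1 of the 5 without it lay in a peak of at least 1 list. In PCDHB it was 5 of 14 with the word and 0 of 2 without, the latter being PCDHB1 and PCDHB6, and in PCDHG 7 of 12 with and 4 of 10 without. PCDHA4 and PCDHA1, shown above, both carry GATGTCGCT, 78 and 43 bp before the TSS, and the first was fully covered by xxChIP H1.2 and the second bare in all lists.

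More first exons than promoters were free of peaks in PCDHA (14 against 11) and PCDHG (15 against 11), and fewer in PCDHB (7 against 11). These counts compare unlike windows. The first exons are longer than TSS ± 1000 bp, with medians of 2532 bp in PCDHA, 2598 bp in PCDHG and 3846 bp in PCDHB. A first exon was counted as covered when at least 50% of its bases lay in peaks. By xChIP H1.2 this held for 2 of 53 first exons, PCDHB3 (81.1%) and PCDHB11 (56.4%). The share called was 35.6% over all genes and 14.2% over the 471 first exons of at least 2000 bp, a group that includes all 53. By xChIP H1.5 no first exon was counted, where 9.25% of all and 4.46% of the long first exons were. By xxChIP H1.2 it was PCDHA4 alone (100%), with 3.17% of all and 3.18% of the long ones, and by xxChIP H1.5 PCDHB8 (100%) and PCDHB5 (54.4%), with 3.05% of all and 1.70% of the long ones. Close below the limit were PCDHB2, at 49.1% in xxChIP H1.2, and PCDHGC3, at 49% in xChIP H1.2.

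Of the 53 first exons, 36 (67.9%) had no base in a peak of any list, beside 51.4% of all first exons of at least 2000 bp. In PCDHA this held for 14 of 15, in PCDHG for 15 of 22 and in PCDHB for 7 of 16. No first exon was touched by all 4 lists, beside 0.139% over all protein-coding genes. The same held for all first exons of at least 2000 bp, so this is not particular to the clusters.

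All 5 first exons touched by 2 or more lists were PCDHB exons. Of the 53 first exons, 5.66% were touched by 2 lists and 3.77% by 3. The shares were 10.6% and 1.49% over first exons of at least 2000 bp, and 7.98% and 0.408% over all genes. PCDHB1, an exon of 7973 bp (chr5:140430959-140438931), was covered to 38% in xChIP H1.2, 41.9% in xxChIP H1.2 and 32.6% in xxChIP H1.5. PCDHB11 was covered to 56.4%, 31.1% and 35% by the same lists, and in neither exon was any base covered by xChIP H1.5. Part of PCDHB2 was covered by xChIP H1.2 (22.4%) and xxChIP H1.2 (49.1%), part of PCDHB5 by xChIP H1.2 (25.7%) and xxChIP H1.5 (54.4%), and part of PCDHB7 by xChIP H1.5 (28.8%) and xxChIP H1.5 (42.1%). These were parts away from the TSS, since the promoters of PCDHB1, PCDHB2, PCDHB5, PCDHB7 and PCDHB11 held no peak base. PCDHB first exons are also longer, with a median of 3846 bp beside 2532 bp in PCDHA and 2598 bp in PCDHG.

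In PCDHG, 7 of 22 first exons held some peak bases, each from 1 list. After PCDHGC3 the largest parts were 37.5% of PCDHGA9 by xChIP H1.2, 25.5% of PCDHGA8 and 18.1% of PCDHGA4 by xChIP H1.5, and 12.6% of PCDHGB4 by xxChIP H1.5. PCDHGC4 held 6.30% in xChIP H1.5 and PCDHGB3 2.30% in xChIP H1.2. By xxChIP H1.2 no base of a PCDHG first exon was covered, and 12 peaks of that list lay in the cluster. That list touched 7.86% of all first exons of at least 2000 bp, so few would be looked for among 22.

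The peaks of the clusters lay mainly in the spaces between neighbouring first exons. Over all 3 clusters, xChIP H1.2 covered 7.56% of first-exon bases and 22% of the bases between them. For xChIP H1.5 these values were 2.21% and 17.8%. They were 5.90% and 29.2% in xxChIP H1.2, and 6.55% and 20.5% in xxChIP H1.5. The ratio of spaces to first exons was 2.91, 8.07, 4.96 and 3.13 in the order of the lists. It was larger over PCDHA and PCDHG as 1 set, where it ran from 10.2 for xChIP H1.2 to 54.3 for xxChIP H1.5, than in PCDHB, where it ran from 1.15 for xChIP H1.2 to 2.09 for xxChIP H1.2. Without the longest peak of the clusters the ratio for xChIP H1.2 was 1.69.

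**Figure D4:**
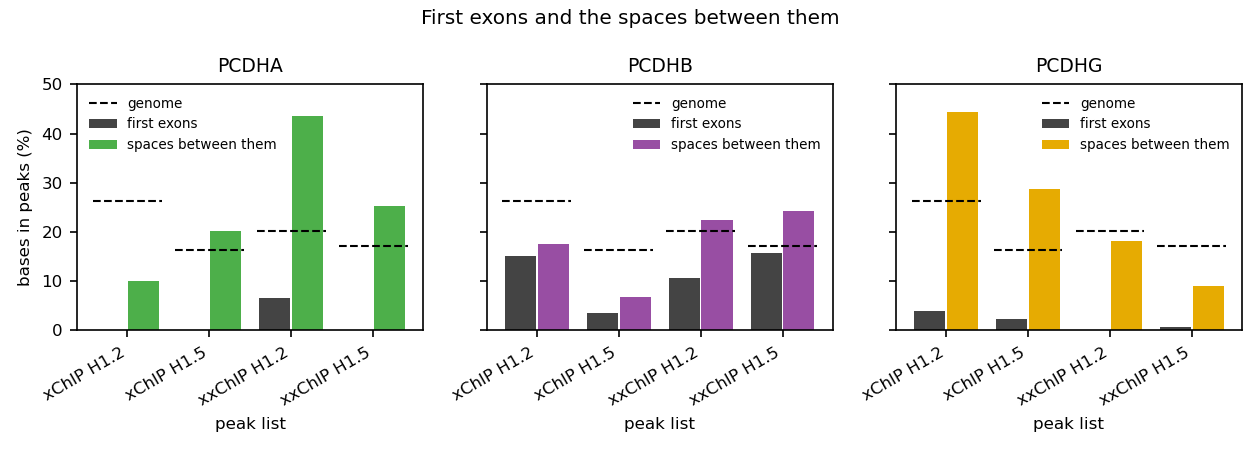
Percent of bases in peaks for the first exons (dark bars) and the spaces between them (coloured bars) of PCDHA, PCDHB and PCDHG, for each list, with the coverage of chromosomes 1 to 22 and X as a dashed line. In PCDHA 3 of the 4 lists have no dark bar, since they covered 0% of first-exon bases, and in PCDHB the 2 bars are closest, at 15.1% and 17.5% for xChIP H1.2.

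The difference was also present when the longest spaces were left out. Of the 50 spaces, the 39 of up to 7973 bp, the length of the PCDHB1 exon and above the median first exon of 2601 bp, were covered to 15.5% in xChIP H1.2, 10.8% in xChIP H1.5, 18.5% in xxChIP H1.2 and 17.5% in xxChIP H1.5. Of these 39 spaces, 10, 11, 10 and 13 were entered by peaks of the lists in that order, beside 8, 5, 5 and 6 of the 53 first exons. Over all 50 spaces, the long ones included, 22 were entered by 2 or more lists and 13 by none. Among the short ones, those from PCDHA7 to PCDHA8, PCDHGA8 to PCDHGB5 and PCDHGB6 to PCDHGA10 are examples entered by peaks of 3 lists each. In the PCDHA7 to PCDHA8 space (4448 bp) the coverage was 45.3% in xChIP H1.2, 0 in xChIP H1.5, 47.7% in xxChIP H1.2 and 37.5% in xxChIP H1.5, with both neighbouring exons at 0 in all lists.

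Coverage was lower in the exon than beside it for protocadherins and for other genes with long first exons. Each first exon was set against the 3 kb on either side of it, which can hold parts of a neighbour's exon. For the 53 genes the sides were covered 1.49 (xChIP H1.2), 4.72 (xChIP H1.5), 2.58 (xxChIP H1.2) and 2.28 (xxChIP H1.5) times as much as the exons. For the 418 other protein-coding genes with first exons of at least 2000 bp the same ratios were 1.58, 1.97, 2.84 and 2.89. The clusters differed in this. In PCDHB the ratios were 1.11, 1.89, 1.34 and 1.21, below those of the other genes in each list. In PCDHG they were 2.74 and 5.28 for the H1.2 and H1.5 lists of xChIP and 16.7 for xxChIP H1.5, and xxChIP H1.2 covered 13.4% of the sides and no exon base. In PCDHA no exon base was covered outside xxChIP H1.2 (ratio 2.9), while the sides were covered to 5.71% in xChIP H1.2, 12.4% in xChIP H1.5 and 18.8% in xxChIP H1.5. Counted by gene, the exon was lower than its sides for 30.2%, 35.8%, 47.2% and 47.2% of the 53 genes, beside 40.0%, 37.1%, 28.0% and 27.3% of the other genes. It was higher for 9.43%, 5.66%, 3.77% and 3.77%, beside 11.5%, 8.85%, 3.11% and 3.11%. Exon and sides were equal for the rest, which were 32, 31, 26 and 26 of the 53 genes and 203, 226, 288 and 291 of the 418 others.

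First exons and spaces also differed in GC content and in how much of their sequence is repeated. First exons had a GC content of 51.9% and the spaces between them of 36.9%. Of the words of 50 bases in the first exons, 12.8% occur elsewhere in hg19, beside 5.72% in the spaces, and the authors kept only uniquely mappable reads. Counting only bases that lie in no repeated 50-base word, which left 77.4% of first-exon bases and 87.6% of space bases, first exons were covered to 7.73%, 2.54%, 5.69% and 5.45% in the order of the lists above. The spaces were then covered to 18.2%, 14.7%, 26.3% and 18.9%. In these unique bases, too, each list covered the spaces more than the first exons. The coverage of spaces was lower in unique sequence than in all of it in each list. Peaks can span unique and repeated bases, and the parts of repeated sequence and of GC content were not tested.

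Around the TSS, the coverage of the 53 genes as 1 set dipped in the first 2000 bp after it and rose again from 3000 bp. In the first 1000 bp after the TSS the 4 lists covered 4.48% (xChIP H1.2), 1.19% (xChIP H1.5), 2.55% (xxChIP H1.2) and 2.50% (xxChIP H1.5). From 3000 to 5000 bp after the TSS, beyond the end of most PCDHA and PCDHG first exons, they covered 14.2%, 15.0%, 17.5% and 20.7%. PCDHB exons, with a median of 3846 bp, reach into this zone. There xChIP H1.2 covered 28.5% in PCDHB, 5.83% in PCDHA and 9.56% in PCDHG. In PCDHB the rise began earlier, with xxChIP H1.5 at 9.03% from 1000 to 2000 bp and 19.6% from 2000 to 3000 bp. For the 53 genes as 1 set, the values from 3000 to 5000 bp were those just given. Over all protein-coding genes the values from 3000 to 5000 bp were 38.6%, 15.6%, 9.84% and 8.18%. All protein-coding genes showed a dip at the TSS in each list as well, from 43.8% at 2000 to 5000 bp before it to 35.9% in the first 1000 bp for xChIP H1.2, and from 10.2% to 3.15% for xxChIP H1.5. At 1000 to 2000 bp after the TSS the coverage over all genes was 13.1% in xChIP H1.5 and 5.00% in xxChIP H1.2, where the protocadherins had 0.109% and 2.79%. With xChIP H1.2 the protocadherins were below all genes in every zone from 5000 bp before to 5000 bp after the TSS. With both xxChIP lists they were above all genes in every zone before the TSS and from 3000 to 5000 bp after it. Between the TSS and 3000 bp after it they were below. At 1000 to 2000 bp before the TSS, xxChIP H1.2 covered 17.5% over the protocadherins and 8.13% over all genes.

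**Figure D5:**
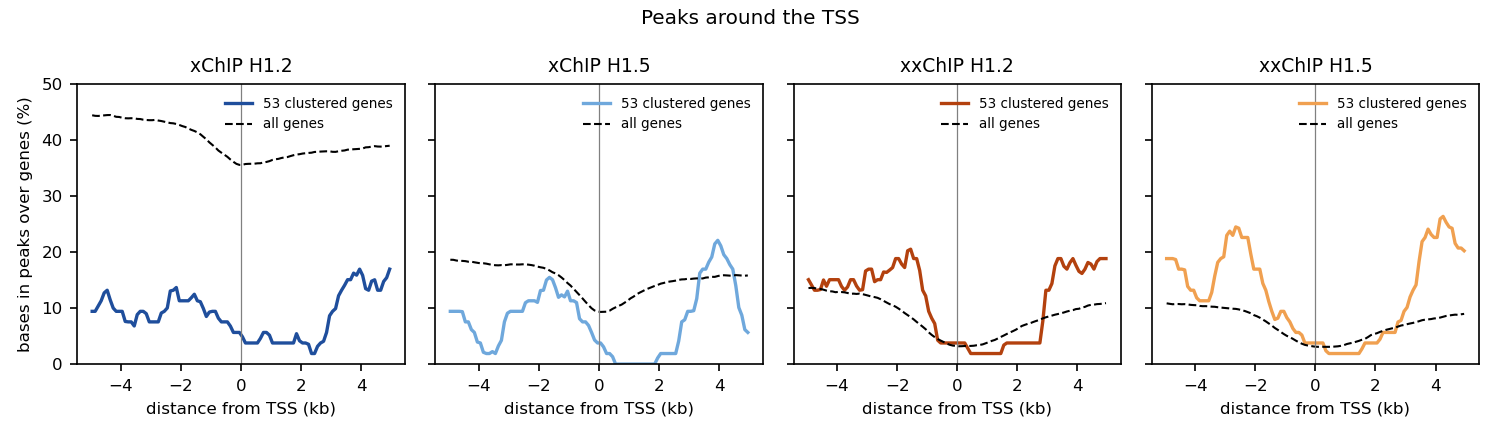
Percent of bases in peaks, in steps of 100 bp, from 5 kb before to 5 kb after the TSS, over the 53 clustered protocadherin genes (solid) and over all 20098 protein-coding genes (dashed), 1 panel per list. Over the first 2000 bp after the TSS, where the first exon is, the solid lines average between 0.109% and 4.48% per 1000 bp, and they rise beyond 3 kb.

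In 3 of the 4 lists the longest peak of the clusters lay between the last ordinary variable exon and the first C-type gene of PCDHA or PCDHG. In xxChIP H1.5 the longest peak (8988 bp) had 1855 bp in the PCDHB5 exon and 7133 bp in the space from PCDHB5 to PCDHB6. Between PCDHGA12, the last of the ordinary PCDHG variable exons, and PCDHGC3 lie 42.8 kb, of which xChIP H1.2 covered 82.2%, xChIP H1.5 50.5%, xxChIP H1.2 14.5% and xxChIP H1.5 3.43%. The first value came from a single peak of 35.2 kb (chr5:140817246-140852410), and the longest xChIP H1.5 peak of the clusters, of 15.0 kb (chr5:140822380-140837392), lay inside it. Without the longest peak of each list the coverage of PCDHG fell to 15.0% (xChIP H1.2) and 11.4% (xChIP H1.5). The first exon of PCDHGC3 starts 3.12 kb after the end of that peak.

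The matching space in PCDHA, the 41.6 kb from PCDHA13 to PCDHAC1, showed the reverse order of protocols. It was covered to 84.7% in xxChIP H1.2, 40.3% in xxChIP H1.5, 36.2% in xChIP H1.5 and 15.9% in xChIP H1.2. Here the longest peak was the xxChIP H1.2 peak of 30.4 kb (chr5:140264562-140294992), which began 314 bp after the end of the PCDHA13 first exon. Without it the coverage of PCDHA by xxChIP H1.2 was 21.2%. The next space, 37.1 kb from PCDHAC1 to PCDHAC2, was covered to 30.3% in xxChIP H1.2, 24.4% in xxChIP H1.5, 21.9% in xChIP H1.5 and 11.7% in xChIP H1.2.

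The packed arrays of ordinary variable exons were covered less than these long spaces, except for PCDHG in xxChIP H1.5. From PCDHA1 to PCDHA13 the lists covered 3.74% (xChIP H1.2), 6.10% (xChIP H1.5), 19.1% (xxChIP H1.2) and 11.0% (xxChIP H1.5). From PCDHGA1 to PCDHGA12 they covered 7.89%, 7.87%, 11.3% and 7.99%.

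The constant parts, which hold the 3 shared exons and their introns, also differed between the clusters. In PCDHG this part (18.2 kb) was covered to 77.4% in xChIP H1.2 in a single peak of 14.1 kb, to 25.9% in xChIP H1.5, to 8.33% in xxChIP H1.2 and to 16.2% in xxChIP H1.5. In PCDHA (33.4 kb) the same values were 14.5%, 3.19%, 38.6% and 20.4%. Of the 3 constant exons of PCDHA, none held a peak base in any list. Of those of PCDHG, the middle one (89 bp) lay wholly in the xChIP H1.2 peak and the last (2029 bp) wholly in an xxChIP H1.5 peak.

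The share of bases that lists of the same protocol had in common differed between the clusters. Of the xChIP H1.5 bases in PCDHG, 80.6% lay in xChIP H1.2 peaks, and of the xChIP H1.2 bases 46.3% lay in xChIP H1.5 peaks, beside 54.8% and 33.9% over chromosomes 1 to 22 and X. In PCDHA, 75.5% of the xxChIP H1.5 bases lay in xxChIP H1.2 peaks and 45.0% of the reverse, beside 51.3% and 43.7% over the genome. Such shares rise with the coverage of the other list. The share of H1.5 bases in H1.2 peaks, divided by the coverage of H1.2 in the same region, was 3.36 in PCDHA, 2.88 in PCDHB and 2.36 in PCDHG for xChIP, beside 2.08 over the genome. For xxChIP it was 2.18, 1.51 and 4.11, beside 2.54 over the genome. The highest value this ratio can reach falls as the coverage by H1.2 rises, so it does not rank the clusters by how far the lists coincided. The other shares of H1.5 bases in H1.2 peaks were below those over the genome. They were 28.9% in PCDHA and 48.1% in PCDHB for xChIP, and 27.9% in PCDHB and 46% in PCDHG for xxChIP. The shares rest on 6 to 17 peaks per list and cluster.

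Only 3 stretches between PCDHA1 and the end of PCDHG were covered by all 4 lists, and none of them touched a first exon. The longest (4584 bp) lay 13.2 kb after PCDHA13, another (1431 bp) lay between PCDHB3 and PCDHB4, and the third (1021 bp) lay between the PCDHA and PCDHB clusters. Together the stretches inside clusters made up 0.992% of cluster bases, beside 0.734% over chromosomes 1 to 22 and X.

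The 2 stretches inside clusters were poor in CpG, with an observed/expected CpG ratio of 0.232 in the first and 0.076 in the second, and a GC content of 38.4% and 38.6%. Of their 50-base words, 39.1% and 86.8% occur elsewhere in hg19. The opposite case, the longest stretch with no peak of any list, was the 26.5 kb around PCDHB15 (chr5:140609869-140636342), followed by 20.2 kb holding PCDHB13 and PCDHB14 and by 13.1 kb holding PCDHAC2.

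Covered and bare promoters of the clusters differed little in GC content. The GC content of TSS ± 1000 bp had a median of 42.8% over the 53 genes, beside 55.9% over all protein-coding genes, and the observed/expected CpG ratio was 0.598 beside 0.635. The ratio was highest in PCDHA (median 0.701) and lowest in PCDHB (0.440), and the promoters of PCDHAC1 and PCDHAC2 had the highest GC content, 56.6% and 57.2%. The 20 promoters in at least 1 list had a median GC content of 43.3% and the 33 others of 42.4%, with CpG ratios of 0.595 and 0.634. Across the 53 genes, which share a locus and much of their sequence, Spearman's rho between summed promoter coverage and GC content was 0.180, and -0.073 with the CpG ratio.

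Other protein-coding genes lie among and beside the clusters. TAF7, a subunit of the general transcription factor TFIID, and SLC25A2, a mitochondrial ornithine carrier, lie between PCDHB and PCDHG. The TAF7 promoter held no peak in any list, and that of SLC25A2 was covered to 42.1% in xChIP H1.2 and to 0 in the others. AC005609.1, within PCDHA, had 52.0% in xxChIP H1.2 and 44.5% in xxChIP H1.5, and the other gene inside the clusters, listed as ENSG00000279983, had 0 in every list. Of the nearest 5 protein-coding genes upstream, WDR55, HARS1 and HARS2 had promoters covered to 100% in xChIP H1.2, and DND1 and ZMAT2 had 0. Downstream, HDAC3, RELL2 and ARAP3 were at 100% and DIAPH1 and FCHSD1 at 0. At 3 of 5 on each side (60.0%), the xChIP H1.2 count is that of few genes beside a share of 47.1% over all genes. Over these promoters the other lists gave 17.8% at DND1 by xChIP H1.5 and 2.55% at HDAC3 by xxChIP H1.2.

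Of 11 protocadherin genes outside the clusters, the promoters of PCDH9 and PCDH7 were overlapped by both xChIP lists. That is 18.2% in each, beside 47.1% (xChIP H1.2) and 20.7% (xChIP H1.5) over all protein-coding genes. PCDH9 was covered to 100% in xChIP H1.2 and 65.7% in xChIP H1.5, and PCDH7 to 1.40% and 4.55%. No promoter of the 11 was overlapped by an xxChIP list, where the shares over all genes were 7.88% (H1.2) and 7.14% (H1.5). With so few genes, a count of 0 does not set them apart from such shares. Of 21 genes for regulators known to act on the clusters, among them CTCF, cohesin subunits and DNA methyltransferases, 11 were overlapped by xChIP H1.2, 4 by xChIP H1.5, none by xxChIP H1.2 and 1, RAD21, by xxChIP H1.5. The first 2 counts are 52.4% and 19%, near the 47.1% and 20.7% of all protein-coding genes. The last 2 are 0% and 4.76%, beside 7.88% and 7.14%. The CTCF promoter was covered to 100% in xChIP H1.2 and to 0 in the other lists.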

How the data were processed

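The 12 immunoprecipitated samples of HL-60/S4 cells make 4 sets of 3 replicates (xChIP or xxChIP, H1.2 or H1.5), grouped by their titles. The 6 Input samples were not analysed here. According to the methods, reads were paired-end, aligned to hg19 by Bowtie2 with at most 2 mismatches and kept if uniquely mappable, and MUSIC with its defaults called the peaks, which were merged over replicates. What the authors deposited for each set is a list of peak positions, with no score, so depth and replicate spread are unknown. The versions of Bowtie2 and MUSIC are not given in the sources used here.

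Genes came from GENCODE 44 lifted to GRCh37. The TSS and first exon were those of the canonical transcript, or of the one with the longest coding sequence where none was marked (2 of the 53 genes, PCDHA6 and PCDHA7). Exon pieces less than 10 bp apart were joined (PCDHB9 and PCDHB16). Coverage is the percent of bases in peaks. A cluster ran from its first TSS to the end of its last transcript, and a space from one first exon to the next. The sequences of the stretches in all 4 lists are not reported here. Words of 50 bases were looked up on both strands of hg19. The members and gene lists were chosen with earlier results of these data known. Genes named by rule were the first, last and C-type genes and PCDHB1, the most covered promoter of each cluster in each list, genes in 3 or more lists, genes between the clusters and the nearest 5 on either side. Others were chosen after their values were seen. No test was made. The alternatives changed the window, the overlap, the TSS, the peaks kept and the region. Interval steps were tested on 200 simulated sets against a base-by-base count, with 0 mismatches. Python 3.11.15, numpy 2.4.6, scipy 1.17.1, pyfaidx 0.9.0.4, matplotlib 3.10.9 and samtools 1.23.1 were used.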

Additional observations from a re-analysis of the deposited data

How the results depend on the processing

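No paired analysis was possible because each list is a merge of its 3 replicates, and for the same reason no replicate could be left out. Of 104 alternative values, 62 stayed within 1.5 times the value reported and 42 did not, and the cause was not tested. Where 4 values are given, those of xChIP come before those of xxChIP and within each protocol H1.2 comes first. With TSS ± 2500 bp, 12, 13, 14 and 14 of the 53 promoters were overlapped, and with at least 50% of TSS ± 1000 bp in peaks 3, 2, 2 and 2. With TSS ± 500 bp the xxChIP counts were 2 and 3. With peaks of at least 2000 bp the counts were 2 (xChIP H1.2), 0 (xChIP H1.5) and 3 (xxChIP H1.2). No share over all genes is given at these settings, so the counts have no background beside them. First exons with at least 1 bp in a peak numbered 8, 5, 5 and 6 (15.1%, 9.43%, 9.43% and 11.3%). The shares were 29.9%, 16.8%, 7.86% and 7.64% over first exons of at least 2000 bp, and 36.9%, 10.3%, 3.49% and 3.41% over all genes. At 90% or more, xChIP H1.2 had 0 and xxChIP H1.5 had 1, and without its longest peak xxChIP H1.5 had 1, again with no background given.

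With peaks of at least 2000 bp, coverage was 5.73% for PCDHA in xChIP H1.2, 2.71% for PCDHB in xChIP H1.5, and 4.35% and 3.88% for PCDHG in the xxChIP lists (H1.2, H1.5). Without the longest peak it was 15.0% and 11.4% for PCDHG in the xChIP lists and 21.2% for PCDHA in xxChIP H1.2. Relative to the genome, counting peak centres in place of bases gave 0.703 for PCDHA and 1.00 for PCDHB (xChIP H1.2), 0.615 for PCDHB (xChIP H1.5), 0.877 for PCDHA and 1.30 for PCDHG (xxChIP H1.2), and 0.674 for PCDHG (xxChIP H1.5). In xxChIP H1.2 this moved PCDHA and PCDHG across 1, from 1.72 and 0.556, and in xChIP H1.5 it moved PCDHA from 0.893 to 1.08. For PCDHG in xChIP H1.2 it gave 1.09, below the 1.30 of xxChIP H1.2, so the order of the protocols there turned. The ratio of spaces to first exons, whose alternatives were chosen after seeing the data, was 1.15, 1.93, 2.09 and 1.55 in PCDHB alone, 10.2, 17.6, 12.6 and 54.3 in PCDHA and PCDHG, and 1.69 for xChIP H1.2 without its longest peak.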

Other observations

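The annotation also places pseudogenes of the family in the locus. PCDHGB9P lay in peaks of 3 lists at TSS ± 1000 bp, with 100% in xChIP H1.2, 14.5% in xxChIP H1.5 and 10.0% in xxChIP H1.2. PCDHGB8P had 67.7% and PCDHB17P 15.6% by xChIP H1.2, PCDHA14 had 21.8% by xChIP H1.5, and PCDHB18P and PCDHB19P had 0 in every list. Before PCDHA1 lie the vault RNA genes VTRNA1-1, VTRNA1-2 and VTRNA1-3, all of them wholly inside the 60.4-kb xChIP H1.2 peak. VTRNA1-2 also lay wholly in an xChIP H1.5 peak and VTRNA1-3 in an xxChIP H1.5 peak.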
